A study of Mus musculus with 4 samples.

Results

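The circadian clock genes Per1, Per2, Per3, Cry1, Cry2, Arntl, Clock, Dbp, Tef and Nfil3 were examined in brown adipocytes of the mouse, fat cells that burn lipid for heat. They were found by gene symbol: every probe set whose platform annotation gave exactly 1 symbol, that of one of these genes, was taken. All 10 genes were present, with 16 probe sets, out of 10926 genes with such a name and 23599 probe sets in all. The tested cells expressed Blnc1, a long noncoding RNA of brown fat, and their controls expressed the empty vector. Both kinds were wild type, were differentiated from preadipocytes for 6 days and were read on 2 Affymetrix arrays each, so that 4 arrays were compared. The labels call the replicates biological, but whether they came from separate transductions, the strain, and the clock time of harvest were not given in the sources used here, so p-values measure the spread between these arrays only.

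The molecular clock is a feedback loop of transcription. CLOCK and ARNTL (also called BMAL1) bind E-box sequences as a pair and switch on the Per and Cry genes, whose products return to the nucleus and repress that pair. The same pair drives Dbp and Tef, activators that bind D-box sequences, while NFIL3 binds the D-box as a repressor. ROR receptors activate Arntl and Nfil3 through a further element, on which REV-ERB receptors compete with them. In brown fat the loop is known for daily rhythms of heat production and lipid use, and in culture the cells of a dish drift out of phase unless a stimulus sets them together.

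The sequences below are shown because they hold matches to these elements: the E-box in Per1, Cry1 and Tef, the D-box in Per3, and the ROR element in Nfil3 and Arntl. Sequences are from RefSeq on GRCm38.p6, read 5′ to 3′ on the strand of the gene, and all but the Arntl site of 30 bases are the 250 bases before an annotated start. Capitals mark matches, on either strand, to the E-box CACGTG, its variant CACGTT, the D-box TTATGTAA or TTACGTAA, or the ROR element ANTAGGTCA. 
Per1, chr11:69098699-69098948, plus strand: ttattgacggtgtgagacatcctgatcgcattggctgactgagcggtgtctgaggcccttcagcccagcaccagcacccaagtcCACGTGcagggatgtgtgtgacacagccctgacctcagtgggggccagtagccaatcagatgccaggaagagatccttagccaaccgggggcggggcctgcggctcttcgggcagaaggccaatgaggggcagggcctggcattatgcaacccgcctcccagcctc
Cry1, chr10:85185055-85185304, minus strand: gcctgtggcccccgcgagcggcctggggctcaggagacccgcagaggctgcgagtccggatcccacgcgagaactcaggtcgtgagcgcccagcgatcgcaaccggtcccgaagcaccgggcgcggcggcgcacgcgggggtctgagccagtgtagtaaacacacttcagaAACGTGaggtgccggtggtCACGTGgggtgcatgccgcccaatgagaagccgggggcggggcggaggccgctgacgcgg
Tef, chr15:81802423-81802672, plus strand: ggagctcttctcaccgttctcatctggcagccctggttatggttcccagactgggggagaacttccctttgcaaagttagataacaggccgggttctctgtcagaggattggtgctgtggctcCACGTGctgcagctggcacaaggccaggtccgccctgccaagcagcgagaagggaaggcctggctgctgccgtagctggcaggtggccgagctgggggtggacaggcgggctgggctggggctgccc
Per3, chr4:151044666-151044915, minus strand: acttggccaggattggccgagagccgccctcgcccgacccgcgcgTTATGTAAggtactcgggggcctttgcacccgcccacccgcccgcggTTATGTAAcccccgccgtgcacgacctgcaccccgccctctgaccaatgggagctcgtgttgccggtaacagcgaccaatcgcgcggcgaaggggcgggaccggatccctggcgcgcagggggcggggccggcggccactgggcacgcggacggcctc
Nfil3, chr13:52981040-52981289, minus strand: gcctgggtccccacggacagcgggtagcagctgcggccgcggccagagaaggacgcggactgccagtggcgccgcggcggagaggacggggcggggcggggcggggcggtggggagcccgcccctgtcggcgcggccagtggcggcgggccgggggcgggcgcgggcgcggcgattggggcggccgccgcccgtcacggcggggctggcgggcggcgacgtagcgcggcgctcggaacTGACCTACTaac
Arntl, chr7:113207529-113207558, plus strand: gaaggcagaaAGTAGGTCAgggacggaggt

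RefSeq windows, of 250 bases before to 50 after a start, were matched for 9 of the 10 genes (14 windows); Per2 had no entry. The E-box was found in windows of 3 genes, Per1, Cry1 and Tef, and in 7.15% of all 32851 windows of the same length. Its variant CACGTT lay in windows of Cry1 and Cry2, and in 4.68% of all windows. Per3 alone among the 9 held a D-box, in 2 copies that began 205 and 158 bases before its start, against 1.06% of all windows with at least 1. The ROR element lay in 2 genes, in Nfil3 from 12 bases before the start and in 1 window of Arntl from base 29 after it, and in 0.661% of all windows. The form was shortened after 2 longer ones had been searched, which matched Arntl alone among the 9 genes and 0.219% and 0.0213% of all windows. No member window held the cAMP response element TGACGTCA, which 1.79% of all windows held. These matches describe letters in a window and not bound sites.

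The arrays themselves differed little in scale, with medians from 5.98 to 6.04 log2 units. The brighter probe set of C730029A08Rik, which the reference table lists with Blnc1 as a synonym of Paqr9, read 12.73 and 12.75 on the Blnc1 arrays and 8.08 and 8.14 on the vector arrays. Its dimmer probe set and that of Paqr9 stood at log2 fold changes of -0.31 and -0.50 and did not pass. All 6 measured adipocyte markers, among them Fabp4, Adipoq and Pparg, lay above the array medians, with list means of 11.42 and 11.36 on the Blnc1 arrays against 11.43 and 11.43 on the vector arrays. The brown adipocyte list averaged 8.98 and 9.08 on the Blnc1 arrays and 7.41 and 7.37 on the vector arrays. Of its 6 measured genes 5 were higher by the test, and Elovl3 was higher (log2 fold change 0.27) without passing. The preadipocyte and fibroblast list averaged 6.26 and 6.29 on the Blnc1 arrays and 6.64 and 6.66 on the vector arrays, with 1 of 5 genes, Postn, lower by the test. All 5 measured markers of macrophages, endothelium and skeletal muscle were below the array medians and none passed. The shifts of the brown and the preadipocyte lists separate the same arrays as every comparison below, and their part in the clock gene values was not tested. In bulk RNA, fewer cells of a type and less RNA per cell cannot be told apart.

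None of the 16 clock gene probe sets passed the test between Blnc1 and vector cells (limma over all probe sets, Benjamini-Hochberg adjusted p of 0.05), against 0.928% of all probe sets (0.623% higher and 0.305% lower in Blnc1 cells). At an unadjusted p under 0.05 there were 3, namely Nfil3, Per2 and 1 of 3 probe sets of Per3, which is 18.8% of the clock gene probe sets, beside 18.9% of all probe sets. Of these 3, 2 were higher in Blnc1 cells and 1 lower, beside 10.3% and 8.6% of all probe sets. Both arrays of one group lay outside the other group for 6 of the 16 (2 higher and 4 lower in Blnc1 cells), or 37.5%, beside 50.4% of all probe sets (26.4% higher and 24.0% lower). The group difference exceeded both replicate differences for the same 3 probe sets, 18.8% of the clock gene probe sets beside 38.5% of all. Log2 fold changes were positive for 6 of the 16, beside 51.3% of all probe sets. The median log2 fold change was -0.043 over the 16 and 0.0056 over all probe sets, and the median size, sign left aside, was 0.072 over the 16 and 0.11 over all. For 14 of the 16, the 95% interval of the difference lay inside a 1.5-fold change in either direction, as it did for 89.6% of all probe sets; Nfil3 and Per2 were the exceptions, each at its upper end.

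**Figure D1:**
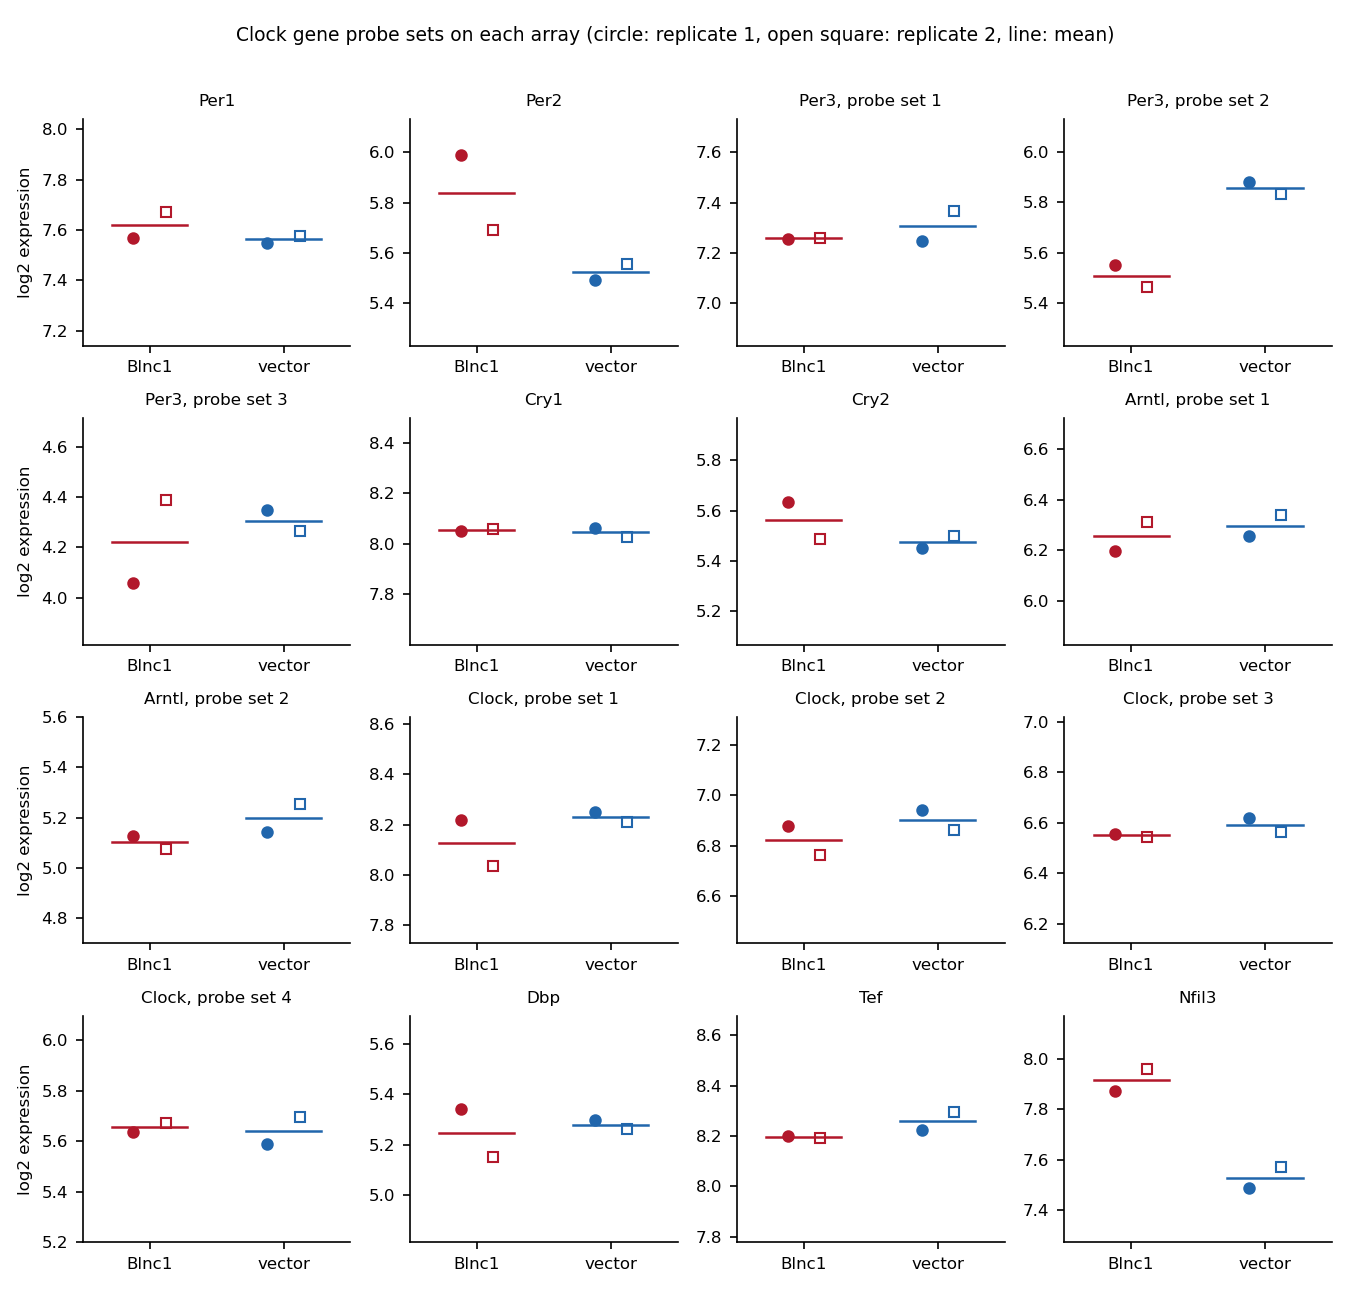
Log2 expression (vertical axes, 0.9 log2 units tall in each panel) of the 16 clock gene probe sets on the 2 Blnc1 arrays (red, left) and the 2 vector arrays (blue, right). Circles are replicate 1, open squares replicate 2 and lines group means; probe sets of a gene are numbered from the brightest. The groups stand visibly apart for Nfil3, Per2 and Per3 probe set 2.

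Nfil3, the D-box repressor, had the smallest p of the 10 genes. It read 7.87 and 7.96 log2 units on the Blnc1 arrays, against 7.49 and 7.57 on the vector arrays. Both Blnc1 arrays were above both vector arrays, and the gap was wider than either replicate difference. The group means were 7.92 ± 0.062 in Blnc1 cells and 7.53 ± 0.058 in vector cells (SD, n = 2 each), a log2 fold change of 0.39 ± 0.082 (SE; 95% interval 0.18 to 0.59), or 1.31-fold. This did not pass (limma adjusted p = 0.0939), and 5.73% of all probe sets had a larger difference in either direction. With a variance prior that follows the intensity the limma adjusted p was 0.0119, in a fit where 2174 of 23599 probe sets passed. In a fit of gene means, over 10926 genes, the limma adjusted p was 0.0470, and how many genes passed there was not counted. Across its 13 alternatives the adjusted p lay between 0.0119 and 0.315.

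The D-box activators differed less than Nfil3 and by no more than their replicates. Dbp, a PAR-domain leucine zipper factor, read 5.34 and 5.15 on the Blnc1 arrays and 5.30 and 5.26 on the vector arrays. The vector values lay between the Blnc1 values, and the log2 fold change of -0.033 ± 0.094 (SE; 95% interval -0.26 to 0.20, limma adjusted p = 0.888) did not pass. Tef, its close relative, read 8.20 and 8.19 on the Blnc1 arrays and 8.22 and 8.30 on the vector arrays. Both Blnc1 arrays were lower, by a log2 fold change of -0.064 ± 0.078 (SE; 95% interval -0.25 to 0.13, limma adjusted p = 0.712), which was less than the difference between the vector replicates. Hlf, the remaining factor of that family, is given with the wider pathway below.

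Among the Period genes, whose proteins form the repressing limb of the loop, Per2 differed most on the brightest probe sets, though a dimmer Per3 probe set differed more. It read 5.99 and 5.69 on the Blnc1 arrays, against 5.49 and 5.56 on the vector arrays. Both Blnc1 arrays were higher, but they also lay far from each other. The log2 fold change was 0.31 ± 0.12 (SE; 95% interval 0.029 to 0.60), or 1.24-fold, and did not pass (limma adjusted p = 0.226). Without Blnc1 replicate 1 it was 0.16, and without Blnc1 replicate 2 it was 0.46. Per1, the Period gene best known for quick induction by glucocorticoid and cAMP signals, read 7.57 and 7.67 on the Blnc1 arrays and 7.55 and 7.58 on the vector arrays. These ranges overlapped, at a log2 fold change of 0.058 ± 0.081 (SE; 95% interval -0.14 to 0.26, limma adjusted p = 0.757).

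Per3, whose window held the D-box matches shown above, was read by 3 probe sets that gave different results. The brightest read 7.26 and 7.26 on the Blnc1 arrays and 7.25 and 7.37 on the vector arrays, so that the groups overlapped (log2 fold change -0.049 ± 0.082 SE). Probe set 2 read 5.55 and 5.46 on the Blnc1 arrays, against 5.88 and 5.83 on the vector arrays. Here both Blnc1 arrays were lower (log2 fold change -0.35 ± 0.080 SE; 95% interval -0.54 to -0.15), without passing (limma adjusted p = 0.109). Probe set 3, the dimmest of the 3, read 4.06 and 4.39 on the Blnc1 arrays and 4.35 and 4.27 on the vector arrays, with overlap (log2 fold change -0.084 ± 0.12 SE). The mean of the 3 gave a log2 fold change of -0.16 (limma adjusted p = 0.272). Which part of the transcript each probe set reads was not analysed here.

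The Cryptochromes, partners of the Period proteins in repression, showed no separation of the groups. Cry1 read 8.05 and 8.06 on the Blnc1 arrays and 8.06 and 8.03 on the vector arrays, the smallest difference among the brightest probe sets of the 10 genes: 95.7% of all probe sets differed more. Its log2 fold change was 0.0086 ± 0.075 (SE; 95% interval -0.18 to 0.19, limma adjusted p = 0.965) and turned to -0.0073 after median centring. Cry2 read 5.63 and 5.49 on the Blnc1 arrays and 5.45 and 5.50 on the vector arrays, with a log2 fold change of 0.086 ± 0.087 (SE; 95% interval -0.13 to 0.30, limma adjusted p = 0.649).

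Clock and Arntl, the activating limb, gave small values on all of their 6 probe sets. The brightest Clock probe set read 8.22 and 8.03 on the Blnc1 arrays and 8.25 and 8.21 on the vector arrays. The groups overlapped, and the log2 fold change was -0.11 ± 0.092 (SE; 95% interval -0.33 to 0.12, limma adjusted p = 0.592). The other Clock probe sets stood at log2 fold changes of -0.080, -0.043 and 0.015, the last of which was -0.0013 after median centring. Arntl read 6.20 and 6.31 on the Blnc1 arrays and 6.26 and 6.34 on the vector arrays on its brighter probe set, which overlapped (log2 fold change -0.043 ± 0.085 SE; 95% interval -0.25 to 0.17, limma adjusted p = 0.834). Its dimmer probe set read 5.13 and 5.08 on the Blnc1 arrays and 5.14 and 5.25 on the vector arrays, and both Blnc1 arrays were lower (-0.096 ± 0.083 SE on the log2 scale, limma adjusted p = 0.588).

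**Figure D2:**
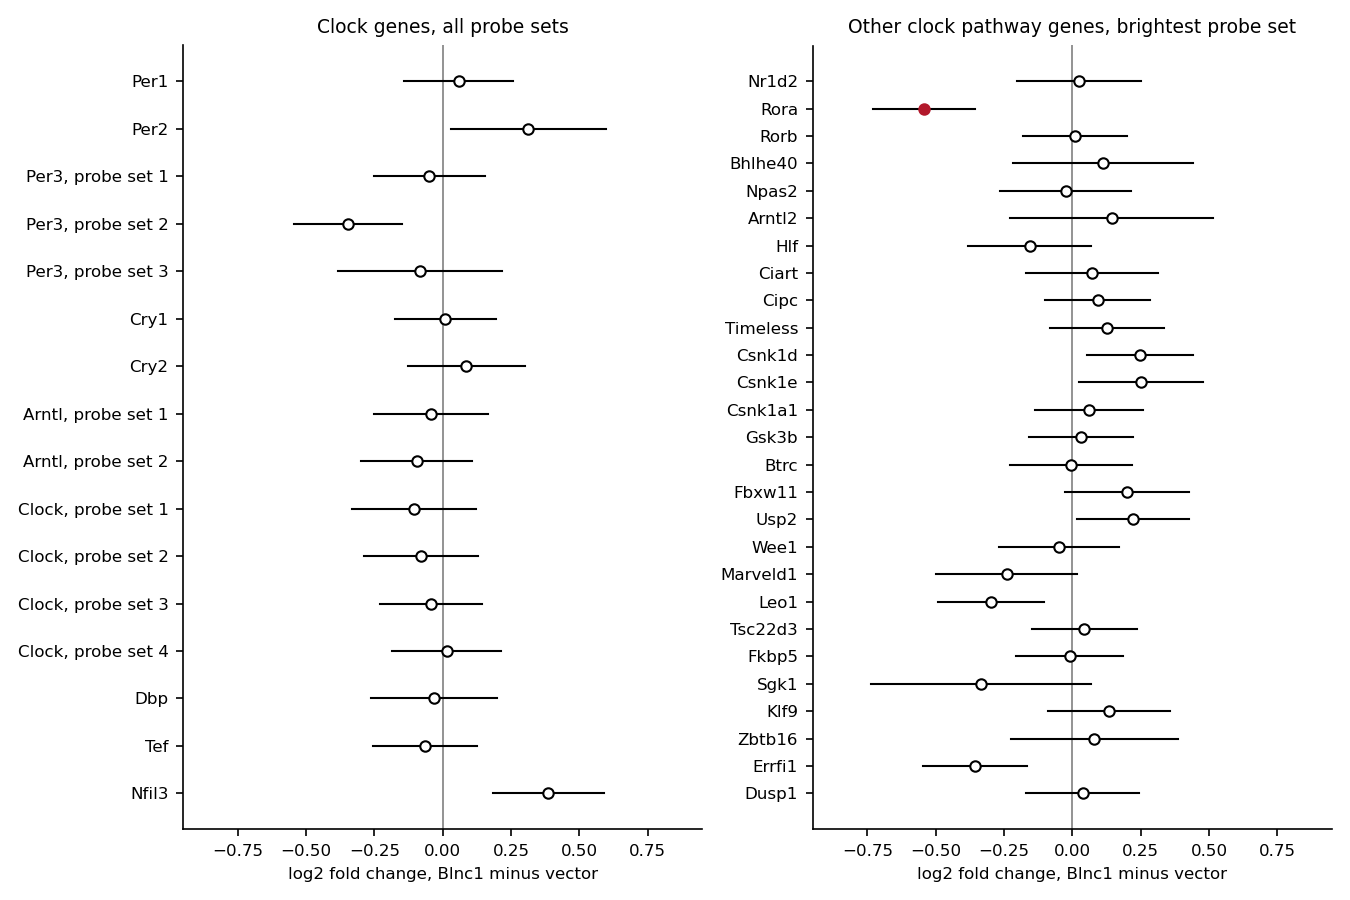
Log2 fold change (Blnc1 minus vector, horizontal axes) with its 95% interval from limma for the 16 clock gene probe sets (left) and the brightest probe set of 27 further genes (right). The further genes are those of the wider clock pathway and glucocorticoid-responsive genes. The filled red point, Rora at -0.54, passed an adjusted p of 0.05; open points did not.

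**Figure D3:**
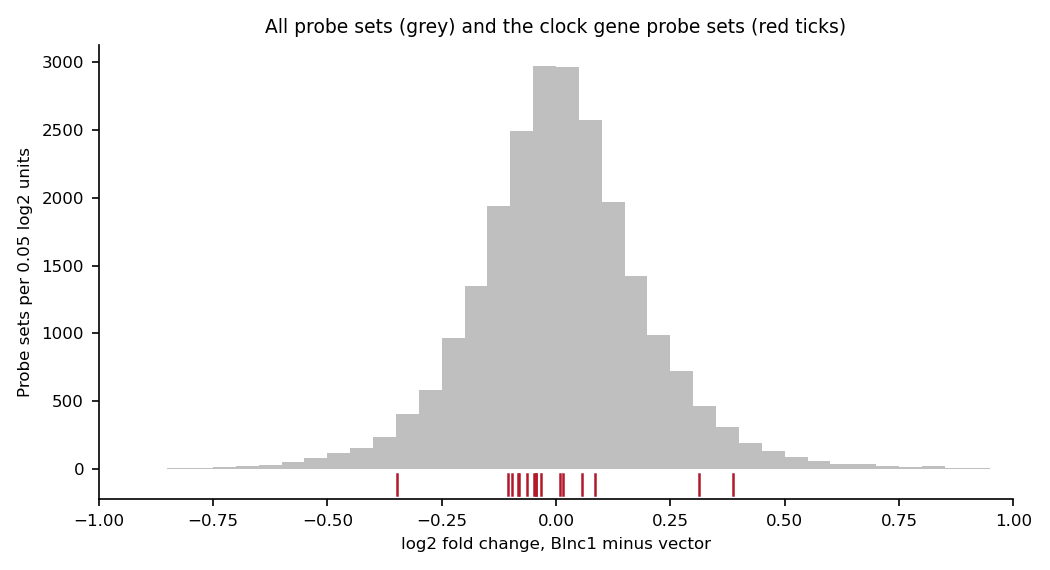
Number of probe sets (vertical axis, per 0.05 log2 units) by log2 fold change (horizontal axis, Blnc1 minus vector) for all probe sets in grey, with the 16 clock gene probe sets as red ticks under the axis. The 59 probe sets beyond 1 log2 unit are not drawn. Most ticks lie near 0, and Nfil3 at 0.39, Per2 at 0.31 and a Per3 probe set at -0.35 lie away from it.

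For the clock gene probe sets, the difference between replicate arrays was set beside that of all probe sets. Over all probe sets the median absolute difference was 0.10 between the Blnc1 arrays and 0.091 between the vector arrays. Of the 16 clock gene probe sets, 7 exceeded it between the Blnc1 arrays and 3 between the vector arrays. Between the Blnc1 arrays (replicate 2 minus replicate 1), Per2 differed by -0.30, Dbp by -0.19, the brightest Clock probe set by -0.18 and Cry2 by -0.15. The medians of these 2 arrays differed by -0.058, and after median centring the values were -0.24, -0.13, -0.12 and -0.087, while the median over the 16 was 0.049 in place of -0.0095. Before centring, a larger difference between these arrays was shown by 9.13% of all probe sets for Per2 and by 24.0% for Dbp. The dim probe set 3 of Per3 went the other way, at 0.33 before centring, as did the brighter Arntl probe set at 0.11 and Per1 at 0.10. After median centring these were 0.39, 0.17 and 0.16, and Nfil3 moved from 0.088 to 0.15. All of these centred values were larger in size than that of Dbp, so the order of the genes depended on centring. Between the vector arrays no clock gene probe set differed by more than the 0.12 of the brightest Per3 probe set, and Per2 and Dbp stood at 0.064 and -0.035. With 2 arrays a group these differences have no test.

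**Figure D4:**
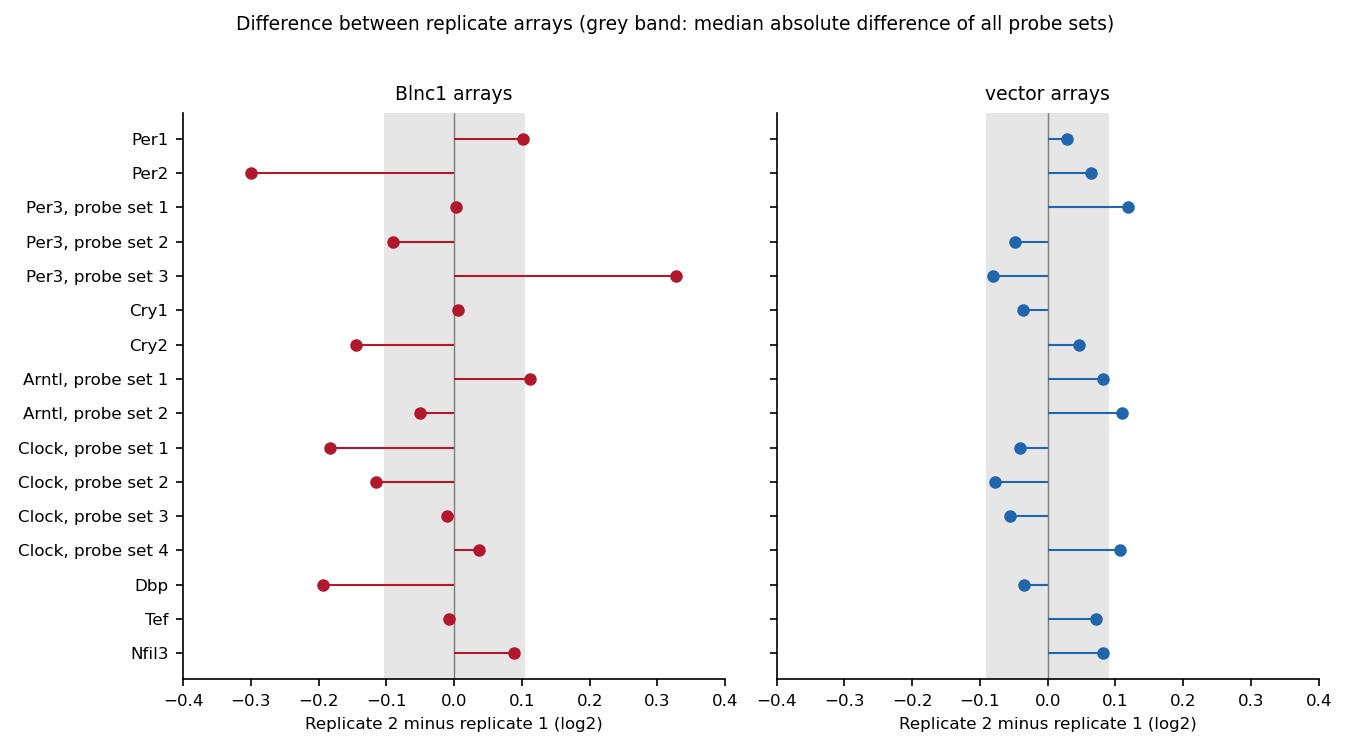
Replicate 2 minus replicate 1 (horizontal axes, log2 units) for each clock gene probe set on the Blnc1 arrays (red, left) and the vector arrays (blue, right). The grey band is the median absolute difference over all probe sets, 0.10 and 0.091. Per2 (-0.30) and Per3 probe set 3 (0.33) reach farthest, both on the Blnc1 arrays.

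The Period genes, Dbp, Tef and Nr1d2 normally peak away from Arntl, Clock, Npas2, Nfil3 and Cry1, so a contrast of both sets was formed on each array. The mean of Per1, Per2, Per3, Dbp, Tef and Nr1d2 minus the mean of those 5 genes was 0.079 and 0.018 on the Blnc1 arrays, against 0.044 and 0.059 on the vector arrays. The vector values lay between the Blnc1 values, and the group means differed by -0.0028. Per2, in the first set, and Nfil3, in the second, were both higher in Blnc1 cells (log2 fold changes 0.31 and 0.39). They enter the contrast with opposite signs, so a difference near 0 does not show that the genes of each set were unchanged. With the mean of all probe sets of each gene the contrast was 0.19 and 0.14 on the Blnc1 arrays and 0.20 and 0.19 on the vector arrays, a difference of -0.027, and the groups again overlapped. Only differences between arrays can be read from this contrast, since probe sets of different genes share no scale.

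A further 34 genes were taken, those of the wider clock pathway together with 7 glucocorticoid-responsive genes. Of these 34, 27 were measured, and 1, Rora, passed (lower in Blnc1 cells, where 0.305% of all probe sets passed). At an unadjusted p under 0.05 there were 6 on the brightest probe sets, 3 in each direction, which is 22.2% of the 27, beside 18.9% of all probe sets; over all 52 probe sets of these genes it was 19.2%. Their median log2 fold change was 0.037. Rora encodes a ROR receptor, of the kind described above as activating Arntl and Nfil3. Whether it acts on the matches shown was not tested. Rora read 6.28 and 6.27 on the Blnc1 arrays, against 6.85 and 6.79 on the vector arrays. Both Blnc1 arrays were lower by much more than the replicates differed. The log2 fold change was -0.54 ± 0.076 (SE; 95% interval -0.73 to -0.35), or 0.69 of the vector level (limma adjusted p = 0.0479). Its other 2 probe sets, at -0.17 ± 0.076 and -0.18 ± 0.091 (SE), were also lower on both Blnc1 arrays but did not pass. The call was lost with any 1 array left out (limma adjusted p 0.136 to 0.172, log2 fold change -0.57 to -0.51), after repeated quantile normalization (0.0555), with a robust prior (0.0519) and without moderation (0.278).

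The other 3 measured genes of the secondary loop, chosen for naming once their values were known, did not reach the threshold. Nr1d2, a REV-ERB repressor, read 8.49 and 8.31 on the Blnc1 arrays and 8.35 and 8.40 on the vector arrays. Rorb stood at a log2 fold change of 0.0089, or -0.0071 after median centring. Bhlhe40, a repressor that binds E-boxes, stood at 0.11 ± 0.13 (SE) and differed between replicates in both groups, with 9.05 and 9.31 on the Blnc1 arrays and 8.93 and 9.21 on the vector arrays.

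Among the paralogs of the clock genes (3 of 3 measured), none passed, and no brightest probe set had an unadjusted p under 0.05. Hlf, the third PAR-domain factor, stood at -0.16 ± 0.092 (SE), with 0.072 on its other probe set. The probe sets of Arntl2 disagreed, at 0.14 ± 0.15 on the brighter and -0.30 ± 0.080 (SE; limma unadjusted p = 0.0092, adjusted p = 0.135) on the dimmer. The dimmer read 3.78 and 3.68 on the Blnc1 arrays and 4.05 and 4.02 on the vector arrays. All 5 probe sets of the paralogs averaged below the array medians. Among the repressors and partners (3 of 3 measured, none past the test, none at an unadjusted p under 0.05), Timeless stood at 0.13 ± 0.085 and Cipc, an inhibitor of the CLOCK and ARNTL pair, at 0.094 ± 0.078 (SE). The other probe set of each had the opposite sign, at -0.12 for Timeless and -0.18 for Cipc.

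The kinases, ligases and the deubiquitinase that set the stability of the clock proteins had a median log2 fold change of 0.20 on the brightest probe set of each gene and 0.078 over all 17 probe sets of these genes, beside 0.0056 over all probe sets of the table. Of the 7 measured of 9, 6 were positive, as 51.3% of all probe sets were, and none passed. On the brightest probe sets 3 of the 7 had an unadjusted p under 0.05, beside 18.9% of all probe sets (10.3% in this direction). Over all 17 probe sets it was also 3, or 17.6%. Csnk1d and Csnk1e encode the casein kinases that phosphorylate the Period proteins. Csnk1d read 9.27 and 9.18 on the Blnc1 arrays, against 8.98 and 8.99 on the vector arrays (log2 fold change 0.25 ± 0.079 SE, limma adjusted p = 0.183). Its other 3 probe sets stood at 0.15, 0.055 and 0.066. Csnk1e read 6.68 and 6.60 on the Blnc1 arrays, against 6.31 and 6.47 on the vector arrays (log2 fold change 0.25 ± 0.092 SE, limma adjusted p = 0.223), with 0.045 on its other probe set. The third with an unadjusted p under 0.05, named after its value was seen, was the deubiquitinase Usp2, at 0.22 ± 0.084 (SE).

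Of 5 listed outputs of the clock 3 were measured, all with negative log2 fold changes on the brightest probe set, as 48.7% of all probe sets had. None passed, and 1 had an unadjusted p under 0.05 on its brightest probe set, beside 18.9% of all probe sets (8.6% in this direction). Leo1, a subunit of the PAF1 transcription elongation complex, read 7.57 and 7.51 on the Blnc1 arrays and 7.87 and 7.80 on the vector arrays (log2 fold change -0.30 ± 0.079 SE, limma adjusted p = 0.135). Marveld1 stood at -0.24 ± 0.10 (SE). A dimmer probe set of Marveld1 (-0.23) and one of Wee1 (-0.36, with -0.048 on its brightest) also had an unadjusted p under 0.05 and did not pass. That Wee1 probe set was dim, at 3.50 and 3.35 on the Blnc1 arrays and 3.88 and 3.69 on the vector arrays. Of 7 glucocorticoid-responsive genes, listed because Per1 is one, none passed and 1 had an unadjusted p under 0.05 on its brightest probe set, or 14.3% beside 18.9% of all probe sets (median log2 fold change 0.037). That 1 was Errfi1, an inhibitor of the epidermal growth factor receptor, at 8.70 and 8.66 on the Blnc1 arrays against 9.01 and 9.06 on the vector arrays (log2 fold change -0.36 ± 0.078 SE, limma adjusted p = 0.0976). Sgk1, a kinase, stood at -0.33 ± 0.16 (SE), or -0.082 without Blnc1 replicate 2 and -0.59 without Blnc1 replicate 1. A dimmer probe set of Klf9 was higher on both Blnc1 arrays (0.23, unadjusted p = 0.0350) and did not pass, with 0.13 on its brightest.

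Over the 4 arrays, each profile centred on its own mean, the genes with a probe set closest to Nfil3 were Mindy2, Sema6d and Edem1. Their root mean square distances were 0.0084, 0.015 and 0.016 log2 units. The log2 fold changes of these probe sets were 0.40, 0.39 and 0.36, and none of the 3 passed (limma adjusted p 0.0870, 0.0870 and 0.108). For Edem1 this was its dimmer probe set, and the brighter stood at 0.26. With 4 arrays many genes can share such a profile.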

How the data were processed

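Biotin-labelled RNA of 4 samples was hybridised to single-colour Affymetrix arrays. The authors deposited 1 log2 value per probe set and array; RMA, affy and limma are named, per the submitters' processing notes, without versions or settings. The log2 scale was read from the values (2.70 to 13.3). RMA compresses differences of dim probe sets, and 7 of the 16 clock gene probe sets averaged below the array medians. After 35 control probe sets were left out, 23599 were fitted with limma 3.58.1 in R 4.3.3 (lmFit, eBayes, two-sided, no covariate, Benjamini-Hochberg over all). The script was tested on simulated data. The brightest probe set over all arrays stands for a gene where 1 value is needed. GEO's platform annotation gave 16692 probe sets 1 symbol, 372 several and 6535 none. Named besides the members were the genes of each fixed list that passed, or else its 2 with the smallest p, and the 3 profiles closest to the member with the smallest p. Outside this rule, Nr1d2, Rorb, Bhlhe40 and Usp2 were named once their values were known. Wee1 and Klf9 were named for a dimmer probe set with an unadjusted p under 0.05. Members and lists were chosen with earlier results of these data known. Motifs were searched in RefSeq promoter windows on both strands. Alternatives were other normalizations, filters, variance priors, thresholds, averaging all probe sets of a gene, a replicate block and leaving out each array. Listed genes without a probe set of exactly 1 symbol were not analysed here. The number of arrays limits the precision.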

Additional observations from a re-analysis of the deposited data

How the results depend on the processing

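The clock gene count of 0 (limma; 3 at an unadjusted p under 0.05) was 1, Nfil3, with an intensity trend in the prior and at an adjusted p of 0.1, and Nfil3 also passed in the fit of gene means. In every other alternative it was 0, and 2 or 3 had an unadjusted p under 0.05. The count over all probe sets, 219 (147 higher and 72 lower in Blnc1 cells), was 311 after median centring (176 higher, 135 lower), 453 among probe sets with a mean of at least 5, 2174 with the trend, 958 at an adjusted p of 0.1, 0 without moderation (3204 at an unadjusted p under 0.05), and 3 to 38 with each array left out. The count among the 27 further genes, glucocorticoid-responsive ones included, was 1, and it was 4 with the trend (1 higher, 3 lower). It was 0 after repeated quantile normalization, with a robust prior and without moderation (4 to 7 at an unadjusted p under 0.05 in these). The replicate block was on numbers that only name the arrays (the replicate differences of both groups correlated at r = 0.089 over probe sets). It gave 30 calls over all probe sets and 0 for the clock genes and the 27 further genes, Rora having a limma adjusted p of 0.0944. The causes were not tested.

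Values near 0 turned sign. Median centring, which moved the median of all probe sets by -0.016, gave Cry1 -0.0073, Rorb -0.0071 and the dimmest Clock probe set -0.0013. With each array left out in turn, the log2 fold change ranged from -0.0093 to 0.027 for Cry1, -0.11 to 0.010 for Per3, -0.25 to 0.080 for its dimmest probe set, -0.099 to 0.013 for Arntl, -0.039 to 0.068 for the dimmest Clock probe set, -0.13 to 0.063 for Dbp, -0.066 to 0.12 for Nr1d2, -0.025 to 0.043 for Rorb, -0.030 to 0.25 for Bhlhe40 and -0.052 to 0.34 for Arntl2. Without turning sign, it ranged over more than 1.5 times for Per1 (0.0069 to 0.11), Cry2 (0.014 to 0.16) and Tef (-0.10 to -0.029). The same held for Hlf (-0.24 to -0.068), Timeless (0.065 to 0.19), Cipc (0.056 to 0.13) and Marveld1 (-0.34 to -0.14). Per2 (0.16 to 0.46), Sgk1 (-0.59 to -0.082), Csnk1e (0.17 to 0.33) and Usp2 (0.16 to 0.29) did so too. Among Clock probe sets it held for the brightest (-0.20 to -0.015) and those at -0.080 (-0.14 to -0.022) and -0.043 (-0.071 to -0.015). Further cases were the dimmer Arntl probe set (-0.15 to -0.041) and the brighter one of Edem1 (0.18 to 0.33). The Rora probe set at -0.18 (-0.25 to -0.12) was another. Of 201 values of clock gene probe sets under alternatives, 190 kept direction and side of the threshold, 9 turned sign and 2, both of Nfil3, crossed the threshold.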
